A study of Rattus norvegicus with 2 samples.

Results

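Neurotransmitter receptors are the proteins through which cells sense noradrenaline, serotonin, dopamine, histamine, acetylcholine, GABA and glutamate. On the rat expression array used here, 146 probe sets of 97 genes carried a symbol of these receptor families, out of 31042 probe sets besides the array controls. They were chosen by symbol among the 20826 probe sets that name 1 gene, and were then sorted by whether their value lay above the array median. Among them, 6 probe sets of the 4 genes Grina, Htra1, Htra2 and Htra3, match the family names only by their letters and encode no receptor. They are described apart, which leaves 140 probe sets of 93 receptor genes.

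The cells were microglia of the Sprague Dawley rat strain, kept in DMEM with fetal serum, and each group was 1 array. In the first group oxygen and glucose were withheld for 3 h, a culture model of ischaemia named oxygen-glucose deprivation (OGD). The second was resting cells with no exposure. The series compared OGD-activated with resting cells at a 1.5-fold difference. Neither group was replicated, so no value below has an error across cultures and no difference has a test. In RNA of a whole culture, fewer cells of a type and less RNA per cell cannot be told apart.

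These receptors work in 2 ways. Ligand-gated ion channels, such as the nicotinic, GABA-A and ionotropic glutamate receptors, are built from several subunits and open a pore when the transmitter binds. The others signal through G proteins that raise cAMP (Gs), lower it (Gi) or release calcium through phospholipase C (Gq). Microglia are the macrophages of the brain, and noradrenaline, acetylcholine, GABA and glutamate are known to modulate their motility and cytokine release.

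The values were linear intensities in arbitrary units, with a median of 19.7 on the OGD array and 19.6 on the resting array. The 75th percentile was 48.0 on the OGD array and 48.2 on the resting array. The median is a rank on the array and not a limit of detection, since the values used here carry no detection calls. Probe sets bind their targets to different degrees, so intensities of different genes are given side by side without ordering the transcripts by amount. Differences are log2 OGD minus log2 resting.

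Among the microglia and macrophage markers, 18 of 21 genes on the array were above the median on both arrays, against 64.5% of all genes. The oxidase subunit gene Cyba had an intensity of 1491 on the OGD array and 1555 on the resting array, the receptor gene Trem2 had 583 and 604, and the lysosomal glycoprotein gene Cd68 had 360 and 371. The homeostatic microglial receptor gene P2ry12 had 30.6 on the OGD array and 36.6 on the resting array, with a log2 difference of -0.26, and the complement gene C1qc had 32.3 and 26.3, with 0.29. Sall1 and Irf8, transcription factor genes of microglia, were below the median on both arrays, Sall1 at 3.79 on the OGD array and 4.07 on the resting array. Csf1r, the growth factor receptor of these cells, was above it on the resting array only, with 19.3 on the OGD array and 21.9 on the resting array. The labelled cell type thus had most of its markers above the median, with the exceptions named.

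Most receptor probe sets lay in the lower part of both arrays. Of the 140, 46 (32.9%) were above the median on both arrays, where the share over all probe sets naming 1 gene was 55.7%. A further 4 were above it on the OGD array only, beside 1.54% of all probe sets, and 3 on the resting array only, beside 1.52% of all. The remaining 87 (62.1%) were below it on both. With the 6 probe sets of the letter matches the first count was 51 of 146. By gene, taking of its probe sets the one that was brighter on average, 39 of 93 (41.9%) were above the median on both arrays, beside 64.5% of all genes. A further 4 were above it on 1 array only and 50 on neither.

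**Figure D1:**
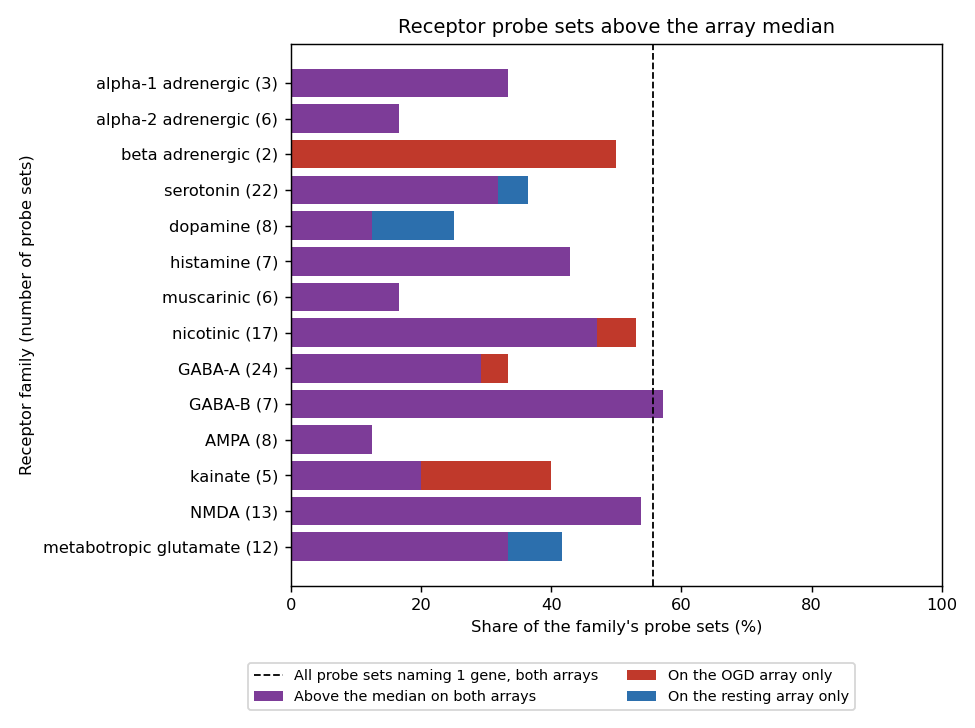
Share of each receptor family's probe sets (x axis, percent) above the array median on both arrays, on the OGD array only or on the resting array only. Families run down the page with their number of probe sets in parentheses, and the dashed line marks the 55.7% of all probe sets naming 1 gene that were above the median on both arrays. Only the GABA-B bar, at 57.1% of 7 probe sets, passes the line.

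The share above the median on both arrays was 35.7% for ion channel subunits (25 of 70 probe sets), and 21 of 70 probe sets of G protein-coupled receptors were above it. By coupling these were 13 of 39 for Gi, 5 of 19 for Gq and 3 of 12 for Gs. Among families it was 53.8% for NMDA receptors (7 of 13), 47.1% for nicotinic receptors (8 of 17), 31.8% for serotonin receptors (7 of 22) and 29.2% for GABA-A receptors (7 of 24). AMPA and dopamine receptors had 1 of 8 each. Several families have only a few probe sets, so 1 probe set moves their share by many percentage points.

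At the upper end, 8 receptor probe sets (5.71%) were at or above the 75th percentile on both arrays, against 29.8% of all probe sets naming 1 gene. They belonged to Gabrd, Drd4, Chrna7, Chrnd, Grm8, Grin1, Grin2b and Grin2c. Of the probe sets above the median on both arrays, those closest to it on either array were Adra1b (19.7 on the OGD array, next to the median, and 32.1 on the resting array, well above it), Chrna6 (19.8 and 23.4) and a probe set of Gabrd (20.3 on both). Just below it were Grin2d (17.4 on the OGD array and 19.4 on the resting array), Htr3a (16.0 and 18.8) and Chrna10 (18.3 and 18.5). On both arrays 16 receptor probe sets lay within 1.2-fold of the median, so the counts depend on where the line is drawn.

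**Figure D2:**
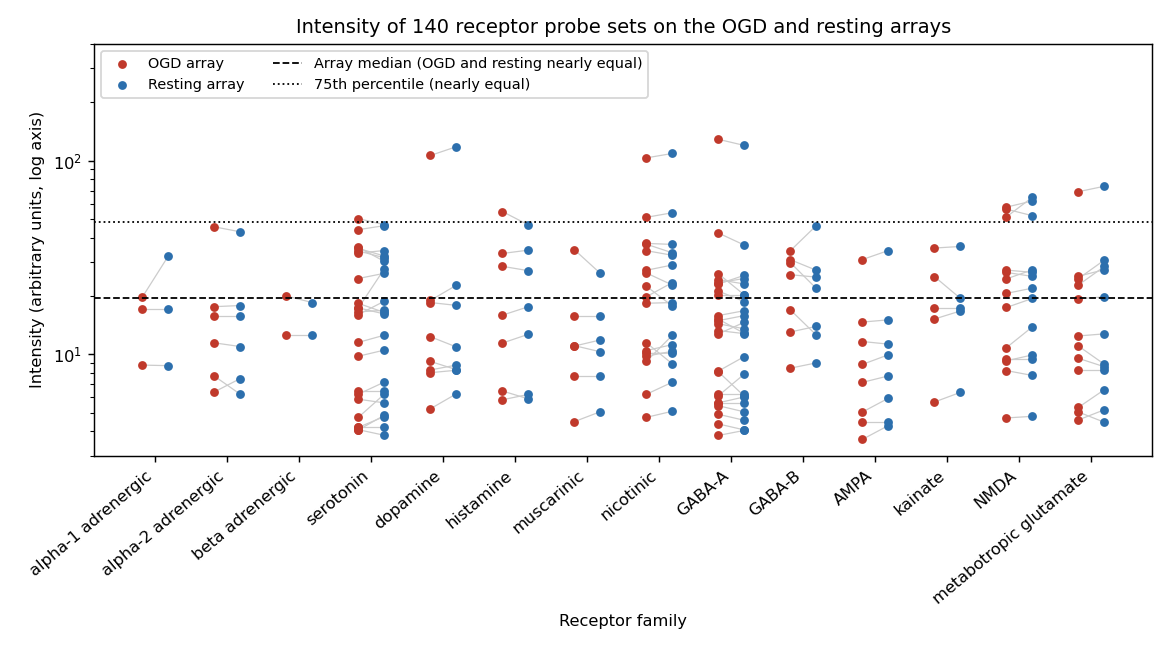
Intensity (y axis, arbitrary units, log scale) of the 140 receptor probe sets by family (x axis), with the OGD array in red on the left and the resting array in blue on the right of each family. Grey lines join the 2 values of a probe set, the dashed line is the array median and the dotted line the 75th percentile. Most points lie below the dashed line, and the 8 probe sets above the dotted line on both arrays belong to the dopamine, nicotinic, GABA-A, NMDA and metabotropic glutamate families.

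The arrays measured nothing at promoters, and promoter sequences are given here only as a feature of the members that their choice did not use. RefSeq promoters of assembly GRCr8, from 250 bases before to 50 bases after the annotated start, were at hand for 71 of the 93 receptor genes. The 3 below are shown because Adra1b is the only receptor gene past 1.5-fold, and because Chrna7 and Grm8 each have a probe set above the 75th percentile on both arrays and differ in CpG content. Each is written 5′ to 3′ on the gene's minus strand, and capitals mark CpG dinucleotides.
Adra1b, chr10:28814298-28814597: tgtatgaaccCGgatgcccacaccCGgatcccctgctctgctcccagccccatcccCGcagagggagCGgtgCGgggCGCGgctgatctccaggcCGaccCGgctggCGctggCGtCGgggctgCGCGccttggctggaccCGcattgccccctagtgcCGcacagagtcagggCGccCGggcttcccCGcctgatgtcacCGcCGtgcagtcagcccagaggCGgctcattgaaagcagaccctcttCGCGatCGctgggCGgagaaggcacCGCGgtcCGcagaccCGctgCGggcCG
Chrna7, chr1:126249080-126249379: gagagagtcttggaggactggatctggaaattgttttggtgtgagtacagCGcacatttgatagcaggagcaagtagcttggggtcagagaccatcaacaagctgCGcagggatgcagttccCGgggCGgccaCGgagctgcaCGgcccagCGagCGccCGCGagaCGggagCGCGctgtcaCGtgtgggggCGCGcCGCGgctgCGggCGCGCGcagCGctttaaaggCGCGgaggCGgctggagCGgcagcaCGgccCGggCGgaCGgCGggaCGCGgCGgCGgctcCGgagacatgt
Grm8, chr4:57687457-57687756: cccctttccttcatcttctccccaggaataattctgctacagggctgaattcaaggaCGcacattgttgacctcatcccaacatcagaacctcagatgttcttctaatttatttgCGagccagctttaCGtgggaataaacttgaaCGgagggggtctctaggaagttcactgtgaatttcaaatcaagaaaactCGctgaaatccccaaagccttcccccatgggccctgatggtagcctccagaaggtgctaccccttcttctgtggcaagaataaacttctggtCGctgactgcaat

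The Adra1b window held 32 CpGs, the Chrna7 window 37 and the Grm8 window 6. Over the 71 receptor promoters the median was 14 CpGs, against 7 over all 27457 promoters of the table. Receptor genes with a probe set above the median on at least 1 array had a median of 15 CpGs (33 promoters). Those with none had 11 (38 promoters). The interquartile ranges were 8 to 28 and 6.25 to 26.75, which overlap. Letter patterns of 3 kinds were searched on both strands of the same windows. CAGCACC, a part of the site of the neuronal repressor REST, was found in 7 of 71 receptor promoters (9.86%), against 6.93% of all. Of these 7, 6 were among the 33 promoters of genes above the median and 1 among the other 38. Neither this split nor that of the CpG counts was made over all genes. GAGGAA, the core of sites for the macrophage factor PU.1, was in 19 receptor promoters (26.8%), against 27.6% of all, and the cAMP response element TGACGTCA in 0 of 71, against 1.89% of all. These matches describe letters and not binding.

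Adrenergic receptors mediate the response to noradrenaline. Adra1b, the Gq-coupled alpha-1B receptor, had an intensity of 19.7 on the OGD array and 32.1 on the resting array, a log2 difference of -0.70. This is 1.63-fold lower on the OGD array, where the value was 19.725 against an array median of 19.659. Adra2b, a Gi-coupled alpha-2 receptor, had 45.5 on the OGD array and 42.9 on the resting array in 1 probe set, while its other 2 were below the median on both arrays. Adrb1, the Gs-coupled beta-1 receptor, was above the median on the OGD array only, with 20.0 there and 18.5 on the resting array, which bounds the difference at 1.02-fold or more. Adra1a had 17.2 on both arrays, Adra2a had 11.4 on the OGD array and 11.0 on the resting array in its brighter probe set, and Adra1d, Adra2c and Adrb3 were also below the median on both.

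Serotonin receptors had 8 of 14 genes above the median on at least 1 array, beside 9580 of all 14217 genes. Htr2a, a Gq-coupled receptor, was above it on the resting array only, and in 1 of its 4 probe sets. That probe set had 17.3 on the OGD array and 27.6 on the resting array, a difference of -0.67 in the values as deposited and at least 1.40-fold lower against the median. It carries the _s_ suffix of probes shared by more than 1 transcript. Whether its level comes from Htr2a alone cannot be read from these values. The other 3 probe sets of Htr2a ran from 4.19 to 11.5 on the OGD array and from 4.21 to 12.5 on the resting array, so they did not share its level. Htr3b, a subunit of the serotonin-gated channel, had 35.7 on the OGD array and 30.2 on the resting array, a difference of 0.24. Its second probe set was below the median, with 16.6 on the OGD array and 16.9 on the resting array. Htr7, which is Gs-coupled, had 44.0 on the OGD array and 46.1 on the resting array, although its 2 other probe sets were below 11 on both. Htr5a had 33.3 on the OGD array and 34.3 on the resting array. Htr1b, Htr2c, Htr4 and Htr6 were also above the median on both arrays, with differences from -0.09 to 0.13. For Htr2c and Htr4 this held in 1 of 2 probe sets, and the other was far below the median on both arrays. Htr2b, a receptor described on microglia in mouse, had 4.72 on the OGD array and 6.22 on the resting array, far below the median.

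Among dopamine receptors only the Gi-coupled Drd4 had a value above the median, and its 3 probe sets stood far apart. One had 106 on the OGD array and 118 on the resting array, a difference of -0.15, and it carries the _s_ suffix that marks probes shared by more than 1 transcript. The second had 19.0 on the OGD array and 22.7 on the resting array, above the median on the resting array only. The last had 9.18 on the OGD array and 8.33 on the resting array. Whether the level of the first comes from Drd4 alone cannot be read from these values. Drd2 had 18.5 on the OGD array and 17.9 on the resting array, Drd3 had 12.3 and 10.9, and both probe sets of the Gs-coupled Drd1 were below 9 on both arrays.

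Histamine receptors had 2 of 4 genes above the median on both arrays, beside 64.5% of all genes. Hrh3, a Gi-coupled receptor, was above it on both arrays in both probe sets. The first had 54.6 on the OGD array and 46.6 on the resting array, a difference of 0.23, and the second had 33.1 and 34.5, a difference of -0.06. The probe sets therefore disagreed in direction. Hrh1, which is Gq-coupled, had 28.4 on the OGD array and 27.0 on the resting array in 1 probe set and was below the median in its other 2. Hrh2 had 11.4 on the OGD array and 12.7 on the resting array, and Hrh4, known from blood leukocytes, had 6.46 and 5.89.

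Acetylcholine acts on muscarinic and nicotinic receptors. Of the 5 muscarinic genes only Chrm5, which is Gq-coupled, was above the median, with 34.7 on the OGD array and 26.2 on the resting array. Its difference of 0.41, or 1.32-fold, was the highest of the 43 measured receptor genes, each taken by 1 probe set. Chrm3 had 11.1 on the OGD array and 10.3 on the resting array in its brighter probe set.

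The nicotinic family had 9 of 16 genes above the median on at least 1 array, beside 9580 of all 14217 genes. Chrna7, the subunit of the homomeric channel through which acetylcholine is known to restrain cytokine release by macrophages, had 103 on the OGD array and 109 on the resting array. Its difference was -0.08, and its only probe set stood at percentile 88.4 of the OGD array and 88.9 of the resting array. Among the other neuronal-type subunits Chrna2 had 37.0 on the OGD array and 33.4 on the resting array, Chrnb2 had 26.3 and 22.8, and Chrna6 had 19.8 and 23.4, with differences of 0.15, 0.21 and -0.24. Chrna4 was above the median on the OGD array only, with 22.4 there and 17.8 on the resting array, at least 1.14-fold higher. Chrna3, Chrna5, Chrna9, Chrna10, Chrnb3 and Chrnb4 were below the median on both arrays.

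Of the 5 subunits of the muscle-type nicotinic receptor, 4 were above the median on both arrays, beside 64.5% of all genes. Chrnd had 50.9 on the OGD array and 53.8 on the resting array, Chrna1 had 34.3 and 32.4, Chrng had 37.4 and 36.9, and Chrne had 27.1 and 28.9. Their differences lay between -0.09 and 0.08. Chrnb1, the beta subunit of the same receptor, was below the median in both of its probe sets, at 10.1 and 10.4 on the OGD array and 10.1 and 11.2 on the resting array. These genes were singled out after their values were seen, apart from Chrnd.

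GABA acts on GABA-A channels and on the GABA-B receptor. Of 16 GABA-A subunit genes, 5 were above the median on both arrays, beside 64.5% of all genes. Gabrd, the delta subunit of channels outside synapses, had 3 probe sets above it, at 129, 23.4 and 20.3 on the OGD array and 120, 24.6 and 20.3 on the resting array. The one at 129 carries the _s_ suffix and the one at 23.4 the _x_ suffix, which is also lettered. The one at 20.3 had exactly equal values on both arrays, as had 14 receptor probe sets in all (10.0%) and 8.19% of all probe sets naming 1 gene. Gabre, the epsilon subunit, had 26.0 on the OGD array and 20.3 on the resting array, a difference of 0.36, and its second probe set had 21.2 and 18.7, above the median on the OGD array only. Gabrr2, a rho subunit, had 42.3 on the OGD array and 36.6 on the resting array, a difference of 0.21, while its second probe set, below the median, had -0.20. Gabra6 and Gabrq were the other 2, with differences of -0.15 and 0.07, and the 11 further genes were below the median on both arrays. The second probe set of Gabra6 was far below the median, with 3.81 on the OGD array and 4.04 on the resting array.

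Both GABA-B genes, which together form a Gi-coupled receptor, were above the median on both arrays. Gabbr1 had 5 probe sets, of which 3 were above the median. The first of them had 34.3 on the OGD array and 46.2 on the resting array, a difference of -0.43. The second had 29.7 on the OGD array and 21.9 on the resting array, a difference of 0.44, and the last had 25.74 and 25.03, a difference of 0.04. The directions cancelled, with a mean difference of 0.02 over these 3. Gabbr2 had 30.8 on the OGD array and 27.1 on the resting array, a difference of 0.18, and its second probe set was below the median on both.

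**Figure D3:**
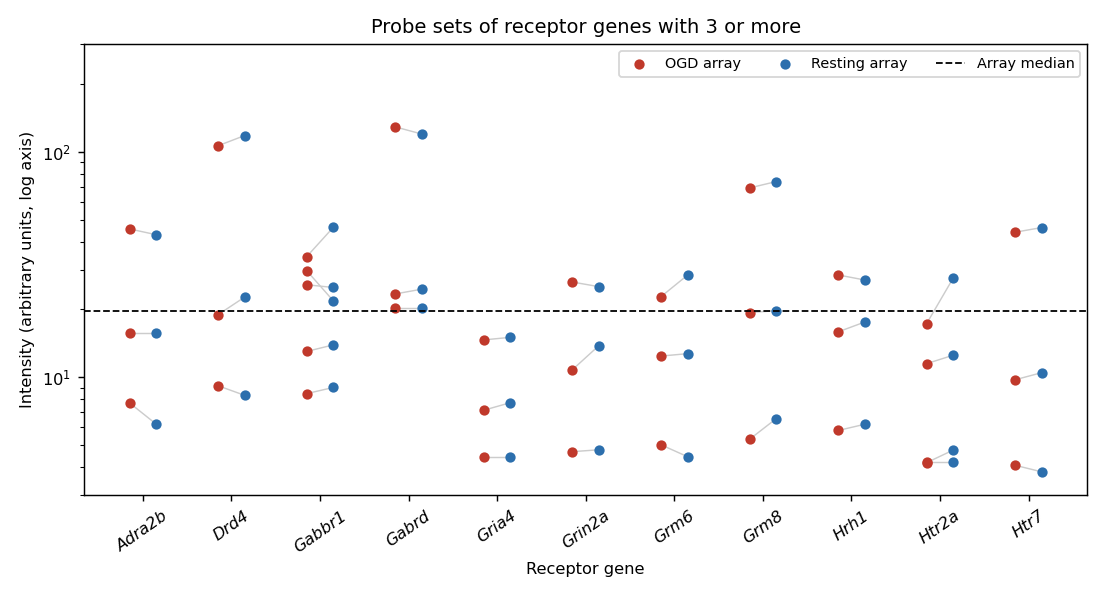
Intensity (y axis, arbitrary units, log scale) of every probe set of the receptor genes with 3 or more (x axis), with the OGD array in red on the left and the resting array in blue on the right, joined by a grey line for each probe set. The dashed line is the array median. Probe sets of a gene lie far apart, from 9.18 to 106 for Drd4 on the OGD array, and those of Gabbr1 above the line run in opposite directions.

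Glutamate acts on AMPA, kainate and NMDA channels and on metabotropic receptors. Of the AMPA subunits only Gria2, which sets the calcium permeability of the channel, was above the median, in 1 of 2 probe sets, with 30.8 on the OGD array and 34.3 on the resting array, a difference of -0.15. Gria1 had 8.86 on the OGD array and 9.94 on the resting array, and the brighter probe sets of Gria3 and Gria4 had 11.6 and 14.7 on the OGD array and 11.3 and 15.1 on the resting array. Among kainate subunits Grik4 had 35.4 on the OGD array and 36.0 on the resting array. Grik1 was above the median on the OGD array only, with 25.2 there and 19.4 on the resting array, at least 1.28-fold higher. Grik2, Grik3 and Grik5 were below it on both arrays.

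NMDA receptor subunits had 5 of 7 genes above the median on both arrays, beside 64.5% of all genes. Grin1, the obligatory subunit, had 57.5 and 20.6 in its 2 probe sets on the OGD array and 61.9 and 21.9 on the resting array, with differences of -0.11 and -0.09. Grin2b had 56.1 and 27.2 on the OGD array and 51.9 and 26.5 on the resting array, with 0.11 and 0.04. In both genes the probe sets agreed in direction. Grin2c had 51.2 on the OGD array and 64.7 on the resting array, a difference of -0.34 or 1.26-fold lower. Grin3b had 24.5 on the OGD array and 27.3 on the resting array in 1 of 2 probe sets, and 9.42 on both arrays in the other. Grin2a had 26.5 and 25.2 in 1 of 3 probe sets, and Grin2d and Grin3a were below the median on both.

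Metabotropic glutamate receptors had 4 of 7 genes above the median on both arrays, beside 64.5% of all genes. All 4 were lower on the OGD array, beside 51.3% of all measured genes. Grm8, a Gi-coupled receptor, had 69.1 on the OGD array and 73.7 on the resting array, a difference of -0.09, while its other probe sets had 19.4 and 5.32 on the OGD array and 19.8 and 6.56 on the resting array. The one at 19.8 was just above the median on the resting array only. Grm5, which is Gq-coupled, had 24.6 on the OGD array and 30.6 on the resting array, a difference of -0.32, but 0.31 in its other probe set, which was below the median. Grm6 had 22.8 on the OGD array and 28.4 on the resting array, a difference of -0.32, in 1 of 3 probe sets. Its other 2 were below the median on both arrays. Grm2, Gi-coupled, had 25.3 on the OGD array and 27.3 on the resting array, a difference of -0.11. Grm3 had 8.30 on both arrays and Grm4 had 9.53 on the OGD array and 8.62 on the resting array.

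Set against each other, the arrays showed no common direction in receptor genes. Of the 43 receptor genes above the median on at least 1 array, 22 were higher and 21 lower on the OGD array, with a median difference of 0.02. Over all 9580 measured genes, 42.8% were higher and 51.3% lower, with a median of -0.008. Past 1.5-fold on the higher side were 0 of the 43, beside 0.0731% of all measured genes. On the lower side it was 1 of the 43, Adra1b, beside 0.0418%. Past 1.2-fold were 9 of the 43 (20.9%), beside 7.53% of all. They were Chrm5, Gabre and Grik1 on the higher side, beside 3.56% of all, and Adra1b, Htr2a, Gabbr1, Grin2c, Grm5 and Grm6 on the lower side, beside 3.97% of all. Each gene was taken by 1 probe set, and the count depends on that choice. As a mean over the probe sets above the median, Gabbr1 had 0.02 and Gabre 0.24, both short of 1.2-fold. The other probe set of Grm5, below the median, had 0.31. Grik1 and Htr2a were above the median on 1 array only.

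Receptor genes lay in the dimmer part of the range, where differences of all genes spread more. The SD of the differences was 0.220 over the 39 receptor genes above the median on both arrays, against 0.157 over the 6611 genes in the same range of mean intensity and 0.134 over the 5532 genes at or above the 75th percentile. Past 1.2-fold were 17.9% of these 39 receptor genes, against 8.92% of the 6611 genes. In the interquartile range of the receptors' mean intensity 15.8% of 19 receptor genes passed 1.2-fold, against 11.4% of 2545 genes. With so few members, 1 gene moves these shares by several percentage points. Within receptor genes the SD of the differences between probe sets was 0.216, from 8 genes with 18 probe sets above the median, and 3 of the 8 genes had probe sets of opposite sign. Gabbr1 carried most of it: without this gene, an alternative chosen after seeing the data, the SD was 0.103 (7 genes). Over all genes the SD between probe sets was 0.158 (2074 genes). This SD covers noise that differs between probe sets and not the spread between cultures.

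**Figure D4:**
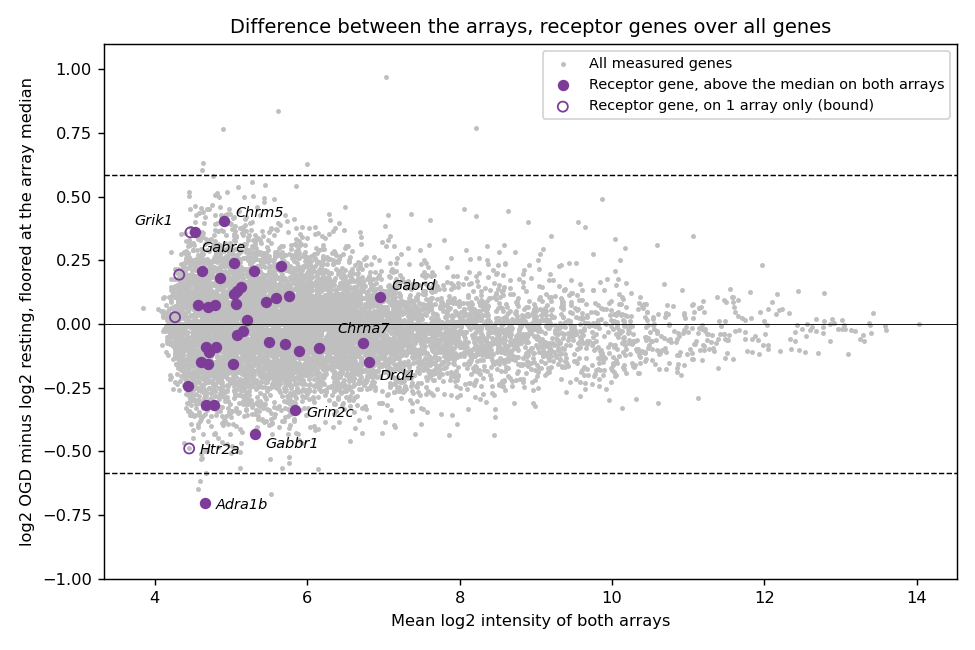
Difference between the arrays (y axis, log2 OGD minus log2 resting, values below the array median set to it) against mean log2 intensity (x axis) for all 9580 measured genes in grey and the 43 receptor genes in purple, open where a gene is above the median on 1 array only. Dashed lines mark 1.5-fold. Only Adra1b, at -0.70, lies beyond them among the receptor genes.

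Probe sets of 1 receptor gene often disagreed on the level. Of 33 receptor genes with 2 or more probe sets, 18 had some above and some below the median, 10 had all below it on both arrays, and 5 had all above it on at least 1 array. The highest value of a gene exceeded its lowest by a median of 3.20-fold on the OGD array and 2.90-fold on the resting array. The 60 genes with a single probe set, Adra1b and Chrna7 among them, have no such check. Leaving out the 25 probe sets with lettered suffixes, which can share probes between transcripts, left 34 of 115 (29.6%) above the median on both arrays. Over all probe sets naming 1 gene without such a suffix it was 55.9%.

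Of a list of 35 receptors reported on microglia, 32 were on the array under a probe set naming 1 gene, and the other 3 were not analysed here. Of the 32, 15 (46.9%) were above the median on both arrays, 3 on 1 array only and 14 on neither, where 41.9% of all receptor genes and 64.5% of all genes were above it on both. Of the 18 above it on at least 1 array, 5 were higher and 13 lower on the OGD array, with a median difference of -0.10, beside 42.8% higher and 51.3% lower of all measured genes. The members of this list that were below the median on both arrays were Adra1a, Adra2a, Htr2b, Drd1, Drd2, Drd3, Chrm3, Gria1, Gria3, Gria4, Grm3, Grm4, Hrh2 and Hrh4.

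Signalling genes downstream of the receptors were also set against the median. Of 37 G protein and cAMP pathway genes, 26 (70.3%) were above it on both arrays, beside 64.5% of all genes, and 1 on 1 array only. Of those above it on at least 1 array, 11 were higher, 15 lower and 1 equal on the OGD array. Over all measured genes 42.8% were higher and 51.3% lower. None of the list passed 1.5-fold. Gnb1, a G protein beta subunit, had 1042 on the OGD array and 1135 on the resting array, Gnas, the alpha subunit of Gs, had 848 and 879, and Gnb2 had 804 and 802. The probe set of Gnas carries the _s_ suffix of probes shared by more than 1 transcript. The adenylyl cyclase gene Adcy6 had 33.7 on the OGD array and 25.1 on the resting array, a difference of 0.43, and the phosphodiesterase gene Pde4d had 40.2 and 31.5, a difference of 0.35. Of 20 genes that switch off receptors or their G protein signal, 14 were above the median on both arrays, beside the same 64.5%. Of these, 8 were higher and 6 lower on the OGD array, beside the same 42.8% and 51.3% of all measured genes. Among them the receptor kinase gene Grk6 had 1792 on the OGD array and 2059 on the resting array, a difference of -0.20, in a probe set with the _s_ suffix. The regulators of G protein signalling Rgs2, Rgs19 and Rgs7 had 611, 256 and 41.5 on the OGD array and 569, 255 and 32.3 on the resting array.

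Of 27 genes for receptor assembly and scaffolds, 16 (59.3%) were above the median on both arrays, beside 64.5% of all genes. Of these, 6 were higher and 10 lower on the OGD array, beside 42.8% and 51.3% of all measured genes. Gabarap, which binds GABA-A receptors and also acts in autophagy, had 3266 on the OGD array and 3196 on the resting array. The scaffold gene of inhibitory synapses, Gphn, had 465 on the OGD array and 516 on the resting array, and Cacng2, which assists AMPA receptors, had 126 and 141. Homer1, a partner of metabotropic glutamate receptors, had a difference of -0.19 and the nicotinic modulator gene Lynx1 of 0.19. Of 30 genes for uptake, synthesis and breakdown of transmitters, 14 (46.7%) were above the median on both arrays, beside 64.5% of all genes, and 5 on 1 only. Of these 19, 13 were higher, 4 lower and 2 equal on the OGD array, with a median of 0.06, beside 42.8% higher and 51.3% lower of all measured genes. Slc6a6, the taurine transporter, had 4906 on the OGD array and 4707 on the resting array. The glutamine synthetase gene Glul had 132 on the OGD array and 152 on the resting array, and Th, of catecholamine synthesis, had 58.8 and 66.4. The glutamate transporter gene Slc1a2 had a difference of 0.43 and the decarboxylase gene Ddc of 0.29. None of these 4 lists held a gene past 1.5-fold, beside 0.115% of all measured genes.

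Many receptors of these families are best known from neurons, and a microglial culture can hold other cells. Of 24 neuron markers, 8 (33.3%) were above the median on both arrays, beside 64.5% of all genes, and 16 on neither. The 24 summed to an intensity of 614 on the OGD array and 600.2 on the resting array. The RNA-binding protein gene Elavl3 had 108 on the OGD array and 117 on the resting array, Uchl1 had 80.9 and 78.8, and Syp, of synaptic vesicles, had 59.4 and 55.9. The probe set of Elavl3 carries a lettered suffix, _x_, so whether its level comes from Elavl3 alone cannot be read from these values. Syn1 and Syn2 had differences of 0.24 and 0.21. The vesicular glutamate transporter genes of neurons, Slc17a6 and Slc17a7, were also above the median, at 45.3 and 41.7 on the OGD array and 42.1 and 44.6 on the resting array. Rbfox3, Tubb3 and Snap25, other neuronal genes, were below the median, at 14.8, 15.2 and 11.2 on the OGD array and 13.1, 13.2 and 10.4 on the resting array. Of 12 astrocyte markers 7 (58.3%) were above it on both arrays, beside the same 64.5%. The 12 summed to 434 on the OGD array and 414 on the resting array. Of the 7, 4 were higher and 3 lower on the OGD array, beside 42.8% and 51.3% of all measured genes. Aldoc had 119 on the OGD array and 121 on the resting array, with a difference of -0.03, and Fgfr3 and Atp1b2 had differences of -0.04 and -0.09. Gfap, the astrocyte filament gene, had 36.9 on the OGD array and 27.4 on the resting array, a difference of 0.43, and Slc1a2 also had 0.43. In oligodendrocyte lineage markers 4 of 12 (33.3%) were above it on both arrays, beside the same 64.5%. The list summed to 232 on the OGD array and 222 on the resting array. The 4 were Cnp, Sox10, Mbp and Cspg4, with differences of 0.07, -0.08, 0.23 and -0.09. In fibroblast, endothelial and mural markers 5 of 15 (33.3%) were above it on both arrays, beside the same 64.5%. The list summed to 473 on the OGD array and 452 on the resting array. The 5 were Pdgfrb, Acta2, Des, Vwf and Col1a1, with differences of -0.17, 0.02, 0.23, 0.28 and 0.21. The markers of microglia and macrophages summed to 3365 on the OGD array and 3514 on the resting array, and of the 19 above the median on at least 1 array 18 were lower on the OGD array, with a median of -0.09, beside 51.3% lower and a median of -0.008 over all measured genes. Each sum follows its brightest probe sets, such as Cyba at 1491 on the OGD array for microglia. The sums therefore give no shares of cell types. No marker had a value of 0. The part of such cells in the receptor values was not tested.

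The 4 genes that match only by their letters were above the median on both arrays. Grina, a membrane protein of the Bax inhibitor family, had 297 on the OGD array and 315 on the resting array, and the mitochondrial protease gene Htra2 had 263 and 254. Htra1, a secreted protease, had 35.2 on both arrays. Htra3, a related protease, had 48.0 on the OGD array and 30.6 on the resting array in 1 probe set, a difference of 0.65 and past 1.5-fold, beside 0.164% of all measured probe sets. Its second probe set had 77.2 on the OGD array and 78.2 on the resting array, a difference of -0.02, and its last was below the median, so the probe sets of Htra3 disagreed.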

How the data were processed

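Total RNA was extracted with TRIzol and labelled with biotin from an oligo(dT) primer, per the labels' protocols. Each array has 1 deposited intensity per probe set, while the authors' background correction and scaling were not given in the sources used here. That the scale is linear follows from the range of values. The number of arrays limits the precision.

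Of 31099 rows, 57 were controls, 20826 named 1 gene, 436 several and 9780 none. Symbols were updated through Entrez IDs to RefSeq (GRCr8), which left all receptor symbols as they were. All 140 receptor probe sets had their ID there. The floor was the median of non-control probe sets of each array. For differences, values under it were set to it, and each gene was taken from its probe set of highest mean log2 value. Measured genes are those above the floor on 1 array or both. Calls were made at 1.5-fold, the threshold in the series' design text. A gene above the floor on 1 array has a bound. Python 3.11.15 and pandas 2.3.3 were used, and the calculation was tested on simulated data.

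The members and lists were chosen with earlier results of these data known. The rule for named genes took receptor genes with a probe set above the median on 1 array only or at the 75th percentile on both, the 8 largest differences in each direction, those with 2 or more probe sets above the median, and those reported on microglia. From each other list it took the 3 brightest and the 2 with the largest difference among genes above the median on both arrays. Other names were added after values were seen, to complete a family. As alternatives the floor was set at the 30th or 70th percentile, over all rows, or not at all, with other probe sets, quantile and loess scaling (span 0.3) and thresholds of 1.2-fold and 2-fold.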

Additional observations from a re-analysis of the deposited data

How the results depend on the processing

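The number of receptor probe sets above the line on both arrays, 46 of 140 at the median, was 88 at the 30th percentile and 12 at the 70th. Moving the line changes the share of all probe sets too, and that share was not counted at these 2 percentiles. The number above it on 1 array only, 7 at the median, was 2 at the 70th percentile and 3 without lettered suffixes, where fewer probe sets were counted. Receptor genes past 1.5-fold were 1 of 43 in the values reported. They were 2 of 70 at the lower floor and 2 of 93 with no floor, where Htr2a joined Adra1b at -0.67. At the higher floor they were 0 of 14, as Adra1b was below the line on both arrays. With the floor at the median, 0 of 43 passed 2-fold and 9 passed 1.2-fold. Quantile and loess scaling left these 4 results within 1.5 times or within the SD between probe sets of all genes (0.158), with medians of 0.012 and 0.015. The median difference ran from -0.07 at the higher floor to 0.02. It was -0.03 without lettered suffixes and -0.03 for genes above the floor on both arrays. Its sign thus differed with the floor and with the probe sets and genes counted. Of 31 named genes that were measured, none had another sign under either scaling. Of their 250 values under alternatives 5 moved by more than that SD, all of Gabbr1 or Htr2a. Gabbr1 had 0.04 without lettered suffixes and 0.02 as a mean over its probe sets. No paired analysis was possible because each group has 1 array. Leaving out an array was not possible for the same reason. The authors' scaling is not given in the sources used here, so differences are relative to whatever centring they applied.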

Other observations

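Exactly equal values on both arrays were found for 14 receptor probe sets (10.0%), against 8.19% of all probe sets naming 1 gene. Of these 14, 13 were below the median on both arrays, among them those of Adra1a, Adrb3, Chrm1, Chrm4, Grik5 and Grm3, and the other was a probe set of Gabrd. Differences also recurred between genes: the probe sets of Grm5 and Grm6 above the median had the same log2 difference of -0.317809 to 6 decimals. Of the 11594 probe sets naming 1 gene above the median on both arrays, 38.7% shared a nonzero difference with another of them at that rounding.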
